A study of Mus musculus with 17 samples.

Results

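The replication-dependent histone genes were taken as every start site in the deposited tables whose RefSeq transcript carries a current symbol of the H1f1 to H1f5, H2ac, H2bc, H3c or H4c families. This gave 70 start sites of 62 genes among 24084 distinct start sites, with 5 for the linker histone H1, 21 for H2A, 18 for H2B, 13 for H3 and 13 for H4. They lie in 3 clusters, and in the mm9 coordinates of the tables the first holds 26 start sites on chromosome 13 between 21808012 and 22135098. The second holds 31 on the same chromosome between 23622912 and 24026330, and the third holds 13 on chromosome 3 between 96023838 and 96073622. The tables of 8 of the libraries carry a smaller set of start sites, 34 of which belong to these genes, and all 34 are in the authors' high-CpG promoter class (HCP).

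The genes encode the core and linker histones that package new DNA during S phase. Most are intronless, their messenger RNAs end in a stem-loop in place of a poly(A) tail, and they are transcribed at a high rate in dividing cells. In mature sperm transcription has stopped and most histones have given way to protamines, so the same promoters can be compared between a dividing and a silent genome.

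The study digested chromatin with micrococcal nuclease (MNase), which cuts DNA that protein does not shield, and sequenced the fragments that were left as paired-end libraries. Swim-up sperm of the vas deferens and cauda epididymis came from C57/B6J mice aged 10 weeks and were crosslinked with 1% formaldehyde for 15 min. They were set against E14, a 129 X Ola mouse embryonic stem (ES) cell line grown without feeder cells, for which no crosslinking is given. The labels do not say whether sperm of several mice were pooled. Strain, crosslinking and enzyme dose cannot be told apart from cell type in any sperm to ES difference.

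The groups were the standard sperm digest (supernatant after 5000 g for 5 min, digested for 5 min at 37 °C) and 3 sperm titrations, against the ES cell supernatant. The standard digest used 1 unit for sperm and 10 units for ES cells on cell numbers that make the enzyme per cell 1000 times lower in sperm. Unspun digests took 0.5, 2, 10 and 50 units of enzyme; those split by the spin took 1, 5, 20 and 100 units for supernatant and for pellet. Each group is 1 library, so no value has a replicate, no test between groups is possible, and each interval is a 95% interval for counting error only. The assay reads DNA, so marker genes cannot check the labelled cell types. Values are fragment equivalents, the table sum divided by what an isolated fragment adds to it in the titration libraries. Within 1000 bp of all start sites the standard sperm library held 519467 fragment equivalents and the ES cell library 774480, and the titration libraries held 2270 to 19577. In the 1-unit supernatant and pellet libraries isolated signal was narrower than elsewhere, with 89.4% and 89.5% of runs covering 1 or 2 bins against 15.3% to 30.3% in the others.

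The sequences just before the start sites can carry elements known from histone gene promoters, such as a TATA box and a CCAAT box; a letter match is a description, not a tested site. They are shown for the most deeply covered gene of each family with 1 entry in the RefSeq promoter table (build GRCm38.p6, 200 bases that end just before the start site). H3c4 is added because its upstream signal differed most between sperm and ES cells outside those genes and their partners. H4c17 and H4c18 are added because their start sites held almost no signal. Capitals mark TATAAA, and CCAAT or its reverse complement ATTGG. The windows are H1f3, chr13:23554832-23555031 (forward strand); H2ac4, chr13:23750888-23751087 (forward strand); H2bc11, chr13:22042998-22043197 (forward strand); H3c2, chr13:23752145-23752344 (forward strand); H4c9, chr13:22041363-22041562 (reverse strand); H3c4, chr13:23575563-23575762 (forward strand); H4c17, chr13:21811546-21811745 (forward strand); and H4c18, chr13:21832198-21832397 (reverse strand).
H1f3: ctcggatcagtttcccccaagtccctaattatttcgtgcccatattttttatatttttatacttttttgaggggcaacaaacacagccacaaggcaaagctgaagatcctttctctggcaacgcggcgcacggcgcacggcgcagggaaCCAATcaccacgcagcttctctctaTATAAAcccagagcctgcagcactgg
H2ac4: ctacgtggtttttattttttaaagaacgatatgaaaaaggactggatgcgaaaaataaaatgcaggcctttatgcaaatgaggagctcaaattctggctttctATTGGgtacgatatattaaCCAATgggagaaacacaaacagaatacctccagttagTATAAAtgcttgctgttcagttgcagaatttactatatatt
H2bc11: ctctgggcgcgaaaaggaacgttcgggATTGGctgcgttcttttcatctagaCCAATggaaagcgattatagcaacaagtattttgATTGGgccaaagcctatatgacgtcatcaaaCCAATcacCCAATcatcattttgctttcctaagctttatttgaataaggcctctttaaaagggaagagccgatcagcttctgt
H3c2: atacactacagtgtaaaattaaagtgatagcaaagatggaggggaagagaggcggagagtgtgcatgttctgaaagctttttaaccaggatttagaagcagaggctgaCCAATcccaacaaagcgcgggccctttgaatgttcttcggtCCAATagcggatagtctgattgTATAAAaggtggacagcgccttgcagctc
H4c9: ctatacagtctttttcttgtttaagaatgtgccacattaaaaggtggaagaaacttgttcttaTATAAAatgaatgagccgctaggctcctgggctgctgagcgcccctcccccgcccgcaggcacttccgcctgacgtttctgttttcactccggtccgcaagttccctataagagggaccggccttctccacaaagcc
H3c4: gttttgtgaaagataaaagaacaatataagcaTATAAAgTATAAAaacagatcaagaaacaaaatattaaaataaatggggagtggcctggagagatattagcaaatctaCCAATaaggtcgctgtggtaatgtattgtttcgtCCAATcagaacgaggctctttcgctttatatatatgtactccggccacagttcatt
H4c17: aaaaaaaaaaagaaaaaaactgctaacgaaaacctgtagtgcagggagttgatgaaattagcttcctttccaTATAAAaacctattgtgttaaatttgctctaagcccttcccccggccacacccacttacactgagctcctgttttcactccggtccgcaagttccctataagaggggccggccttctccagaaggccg
H4c18: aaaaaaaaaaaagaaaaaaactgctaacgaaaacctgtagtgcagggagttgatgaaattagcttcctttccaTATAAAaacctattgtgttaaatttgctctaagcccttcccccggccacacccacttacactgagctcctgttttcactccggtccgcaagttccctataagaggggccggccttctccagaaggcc

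Promoter sequences were found for 57 of the 62 genes, as 58 entries. CCAAT or ATTGG stood in the 250 bases upstream of 48 of the 58, or 82.8%, against 33.8% of all 32817 promoters in the table, and TATAAA or TTTATA in 28, or 48.3%, against 12.4%. All 5 H1, all 17 H2A and all 15 H2B promoters held the CCAAT letters, as did 8 of 10 H3 promoters and 3 of 11 H4 promoters. On the gene's own strand, CCAAT lay 160 to 40 bases upstream in 43 of the 58 (74.1%, against 11.3% of all promoters), and TATAAA lay 45 to 20 bases upstream in 14 (24.1%, against 2.01%). The octamer ATTTGCAT or ATGCAAAT was in 13 promoters (22.4%, against 1.6% of all), 6 of H2A and 7 of H2B. GGGCGG or CCGCCC was in 18, or 31%, against 32.7% of all, and CACGTG was in 0 of the 58, against 6.02% of all. The median GC content of these 250 bases was 44.8%, against 52.4% over all promoters, with a median of 9 CpG dinucleotides against 6.

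Nearly identical copies were found at 9 genes. In H2ac18, H2ac19, H2ac23, H2ac24, H2bc23, H3c14, H3c15, H4c17 and H4c18, more than 50% of the 36-base stretches of the upstream sequence also stood in another promoter of the table. Offset by 1 base, the printed H4c17 and H4c18 sequences did not differ at any base, an identity of 100%. Of the 16 start sites of these 9 genes, 16 held 0 fragment equivalents in the 200 bp upstream in sperm and 14 held 0 there in ES cells. Among the 45 start sites whose promoter shared no stretch, 2 held 0 there in sperm and 6 in ES cells. In both libraries at once, 14 of the 16 and 1 of the 45 held 0 there, against 10.7% of all start sites. What part shared sequence has in these zeros was not tested.

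On chromosome 13, 9 neighbouring start sites of H2bc23, H2ac23, H2ac24, H4c17 and H4c18 lie between 21902068 and 21925611 and were all under 3 fragment equivalents in both libraries. Of these, 8 held 0 within 1000 bp in both, and the other one, a start site listed for H4c18, held 1.95 in sperm and 0 in ES cells. Over the whole 2000 bp on each side, 6 of the 70 start sites had no signal in either library, against 2.61% of all start sites. Under 3 fragment equivalents in both were 12.9% of the histone start sites, against 4.01% of all. No ratio is given for these 9. The treatment of reads that map to several places was not given in the sources used here.

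**Figure D1:**
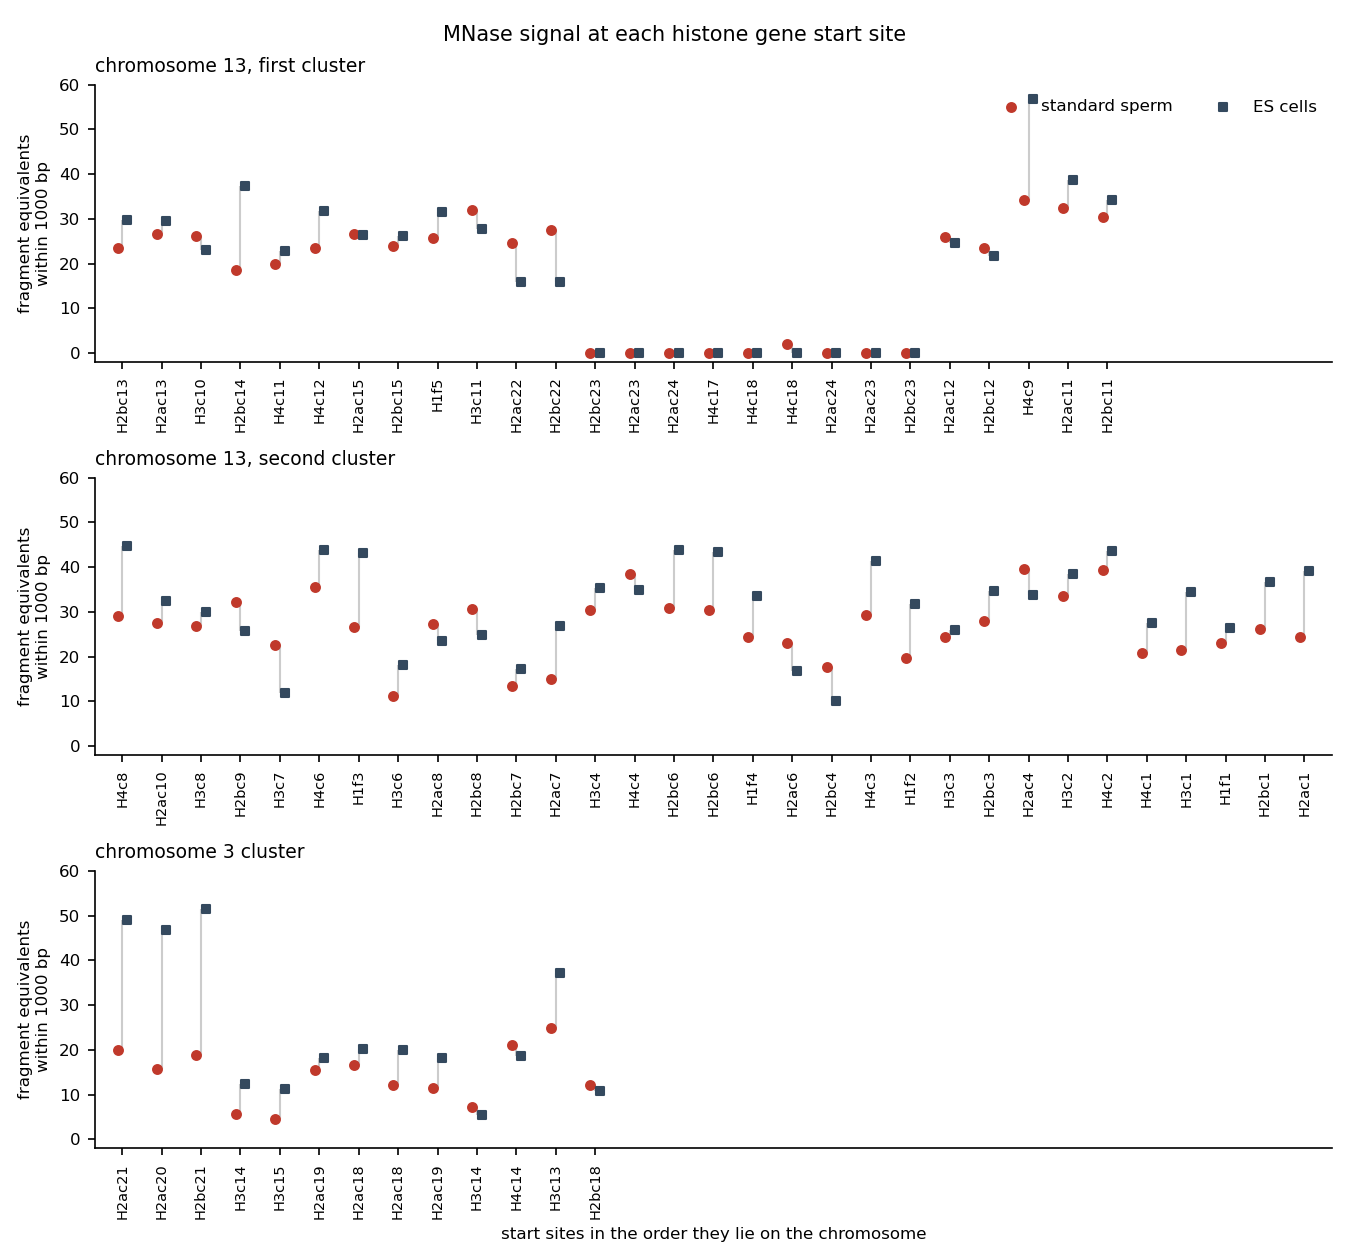
Fragment equivalents within 1000 bp of each of the 70 histone gene start sites, in chromosome order within the 3 clusters, for the standard sperm library (circles) and the ES cell library (squares), not scaled to depth. Values run up to 39.6 in sperm and 56.7 in ES cells, and 9 neighbouring start sites of the first cluster lie at or near 0 in both libraries.

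At the other 61 start sites the share of signal was more often higher in the standard sperm library than in ES cells. The log2 ratios, sperm over ES cells, had a median of 0.33 (range -0.94 to 1.44), against -0.09 over all start sites and -0.25 over the high-CpG ones. It was above 0 at 45 of the 61, or 73.8%, against a background of 44.8%. At a log2 ratio beyond 0.5 in either direction, among the 58 with at least 20 fragment equivalents in both libraries together, 17 were higher in sperm (29.3%, background 19.7%) and 3 were lower (5.17%, background 26.9%). The counting interval lay above 0 at 9 of the 58 (15.5%, background 11.5%) and below 0 at 2 (3.45%, background 11.6%). With each stretch of genome counted once, the 61 start sites held 1088 fragment equivalents in sperm and 1328 in ES cells over 85.9 kb, a log2 ratio of shares of 0.29 (0.17 to 0.41).

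The ratio differed between the chromosomes more than between the histone families. The first chromosome 13 cluster had a median log2 ratio of 0.43, with 15 of 17 start sites above 0, and the second 0.28, with 24 of 31 above 0. The chromosome 3 cluster had a median of -0.05, with 6 of 13 above 0. Pooled, the log2 ratio was 0.35 (0.23 to 0.48) on chromosome 13 and -0.13 (-0.47 to 0.19) on chromosome 3. By family the medians were 0.13 for H1, 0.34 for H2A, 0.35 for H2B, 0.38 for H3 and 0.24 for H4.

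Other genes around the chromosome 13 clusters had a ratio near that of the histone genes there. On chromosome 13, the other start sites were taken from 500 kb before the first to 500 kb after the last histone start site. This takes in the whole stretch between the clusters, and the linker gene H1f6. The 78 with a ratio had a median log2 ratio of 0.29, with 57 above 0 (73.1%, beside 53.8% of all chromosome 13 start sites and 44.8% of all). Pooled, they held 2388 fragment equivalents in sperm and 2903 in ES cells, a log2 ratio of 0.29 (0.22 to 0.37), beside 0.35 for the histone genes there. Most are vomeronasal and olfactory receptor genes, whose 45 start sites had a median of 0.48, while the 33 of other genes had 0.21. In these neighbours the interval lay above 0 at 15 of 70 with at least 20 fragment equivalents (21.4%, beside 13.7% of all chromosome 13 start sites and 11.5% of all), including the receptor gene Vmn1r196 with 61.1 in sperm and 34.8 in ES cells and the zinc finger gene Zkscan8 with 51.1 and 30.1. It lay below 0 at 3, among them Carmil1 with 10.8 in sperm and 35.7 in ES cells, and the deepest neighbour, Gpx5, had a log2 ratio of -0.30 (-0.84 to 0.23). Around the chromosome 3 cluster the median over 37 start sites was -0.34, with 5 above 0 (13.5%, beside 48.1% of all chromosome 3 start sites). Pooled, these neighbours gave -0.30 (-0.43 to -0.17), while the interval of the histone genes there held 0.

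**Figure D2:**
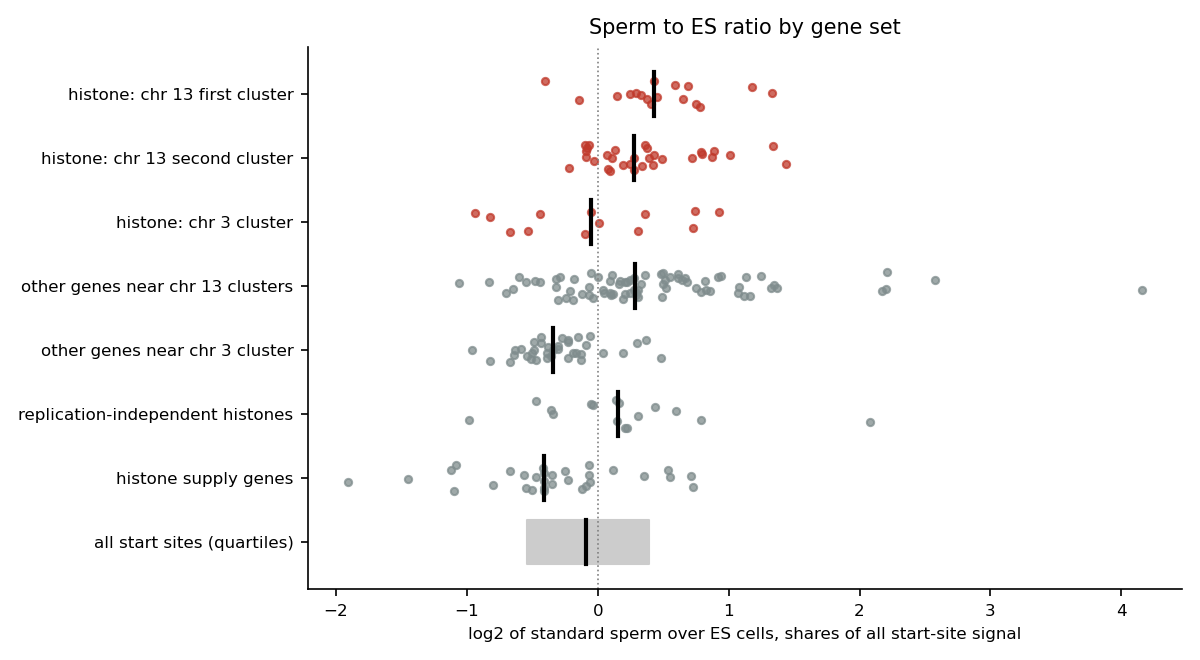
Log2 ratio of the share of signal in standard sperm over that in ES cells, 1 point per start site, with a black bar at each median. The histone clusters of chromosome 13 have medians of 0.43 and 0.28 and the chromosome 3 cluster -0.05, and the grey block gives the quartiles of all start sites, -0.54 and 0.39, around a median of -0.09.

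The linker histone genes H1f1 to H1f5, whose products bind the DNA between nucleosomes, had log2 ratios of -0.10 to 0.39. H1f3, the deepest and the lowest, had 26.6 fragment equivalents in sperm and 43.1 in ES cells, a log2 ratio of -0.10 (-0.85 to 0.63). H1f1 was the highest with 23 in sperm and 26.4 in ES cells, a log2 ratio of 0.39 (-0.48 to 1.27). None of the 5 intervals left out 0. The testis-specific linker gene H1f6, which lies inside the second cluster but outside the rule, had 31.8 in sperm and 27.3 in ES cells, a log2 ratio of 0.79 (0.04 to 1.62).

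Among the H2A genes the deepest was H2ac4, with 39.6 in sperm and 33.8 in ES cells, a log2 ratio of 0.80 (0.11 to 1.51). H2ac22 had the highest ratio, with 24.5 in sperm and 15.9 in ES cells, a log2 ratio of 1.18 (0.26 to 2.22). H2ac20 on chromosome 3 had the lowest, with 15.7 in sperm and 46.7 in ES cells, a log2 ratio of -0.94 (-1.90 to -0.13). H2A genes thus held both a high and a low extreme, each shared with the H2B gene that starts beside them in the opposite direction.

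H2bc6 was the deepest H2B gene, with 30.8 in sperm and 43.9 in ES cells at its first listed start site, giving a log2 ratio of 0.08 (-0.64 to 0.77). H2bc4 had the highest ratio, with 17.8 in sperm and 10.1 in ES cells, a log2 ratio of 1.34 (0.23 to 2.70), and H2bc22 was next with 27.4 and 15.9, a log2 ratio of 1.33 (0.39 to 2.32). H2bc21, the partner of H2ac20, had 18.9 in sperm and 51.4 in ES cells, a log2 ratio of -0.82 (-1.69 to -0.06). H2ac1 and H2bc1, the pair known for expression in the testis, did not stand apart from the other pairs. H2ac1 had 24.3 in sperm and 39.2 in ES cells, a log2 ratio of -0.09 (-0.92 to 0.65), and H2bc1 had 26.3 and 36.8, a log2 ratio of 0.11 (-0.72 to 0.83).

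H3c7 had the highest ratio of all, with 22.6 fragment equivalents in sperm and 12 in ES cells, a log2 ratio of 1.44 (0.45 to 2.66). The deepest H3 gene, H3c2, had 33.5 in sperm and 38.4 in ES cells, a log2 ratio of 0.38 (-0.35 to 1.08). H3c1 was the lowest of those with at least 20 fragment equivalents, with 21.5 in sperm and 34.5 in ES cells, a log2 ratio of -0.08 (-0.90 to 0.76). Of the H4 genes, H4c9 was both the deepest and the lowest, with 34.2 in sperm and 56.7 in ES cells, a log2 ratio of -0.14 (-0.83 to 0.47). H4c14 was the highest with 21 in sperm and 18.7 in ES cells, a log2 ratio of 0.74 (-0.25 to 1.70), and H4c4 had 38.5 and 34.8, a log2 ratio of 0.72 (0.04 to 1.43). The 9 start sites whose interval lay above 0 were those of H2ac22, H2bc22, H2bc9, H3c7, H2bc8, H4c4, H2ac6, H2bc4 and H2ac4. Since the windows of paired genes overlap, they stand for 6 separate places, and the 2 below 0 for 1 place.

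On chromosome 3 the 3 start sites below -0.5 with at least 20 fragment equivalents lay at one end of the cluster. H2ac21 had 20 fragment equivalents in sperm and 49 in ES cells, a log2 ratio of -0.67 (-1.55 to 0.06), and its neighbours H2ac20 and H2bc21 are given above. The repeated copies in the middle of the cluster were shallow in both libraries. H3c14 had 5.59 in sperm and 12.3 in ES cells at its first start site (log2 ratio -0.44, -2.12 to 1.10) and 7.23 and 5.45 at its second (0.93, -0.81 to 3.06). H3c15 had 4.68 in sperm and 11.3 in ES cells, a log2 ratio of -0.53 (-2.44 to 1.08), so a low ratio also occurred there, on few fragments. H2ac18 had 16.6 in sperm and 20.2 in ES cells at its first start site and 12.1 and 20 at its second, and H2ac19 had 15.5 and 18.2, then 11.5 and 18.3. At the other end H3c13 had 24.8 in sperm and 37.3 in ES cells (log2 ratio 0.01), and H2bc18 had 12.1 and 10.8 (log2 ratio 0.73, -0.61 to 2.02).

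A larger difference between the libraries lay just upstream of the start sites. In the 200 bp upstream, with each stretch counted once, the 61 start sites held 129 fragment equivalents in sperm and 83.9 in ES cells, a log2 ratio of shares of 1.20 (0.79 to 1.61). The same stretch gave 0.05 (0.03 to 0.07) over all start sites, -0.18 over the high-CpG ones and 0.28 (0.03 to 0.53) over the chromosome 13 neighbours. Over the chromosome 3 neighbours it gave 0.10 (-0.41 to 0.60). For replication-independent histone genes it gave 0.65 (-0.33 to 1.64), and for genes that serve histone supply 0.40 (-0.36 to 1.15). The intervals of these last sets, described below, held 0 but overlapped that of the 61 start sites. Relative to the flanks, 1000 to 2000 bp on each side, the upstream signal was 0.682 (0.567 to 0.816) in sperm and 0.376 (0.299 to 0.468) in ES cells. In sperm that was above the 0.512 of all start sites and the 0.291 of high-CpG ones, while in ES cells it was below the 0.561 of all start sites and beside the 0.346 of high-CpG ones. The intervals of the upstream log2 ratio lay above 0 on chromosome 13 (1.35, 0.89 to 1.81) and held 0 on chromosome 3 (0.50, -0.52 to 1.51).

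**Figure D3:**
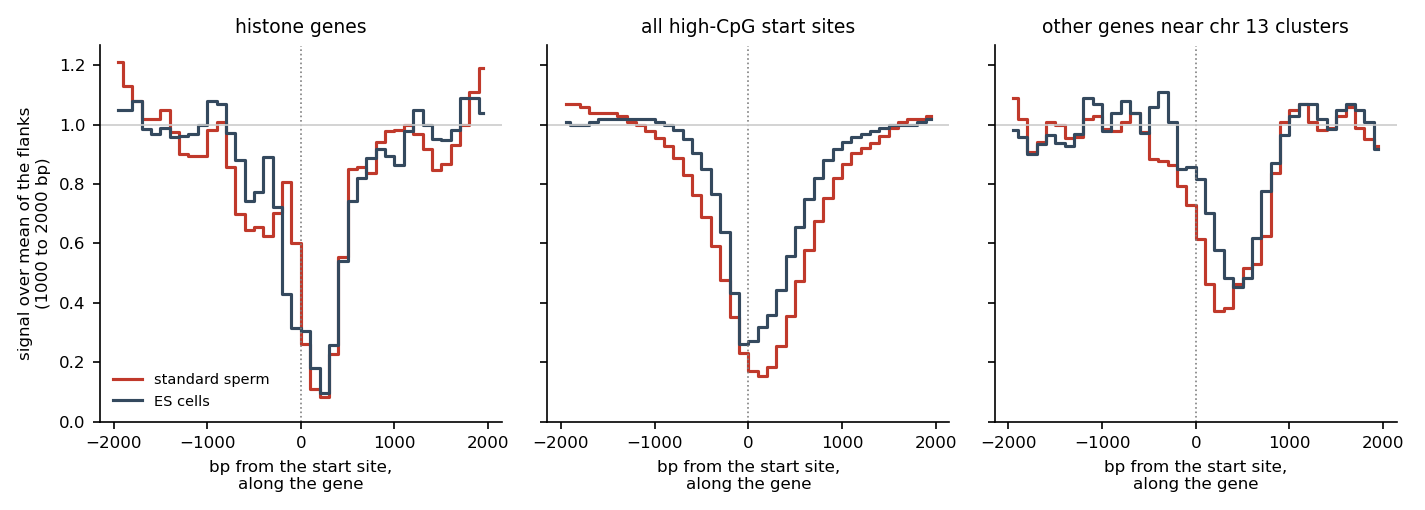
Mean signal in 100 bp steps from 2000 bp before to 2000 bp after the start site, along the direction of the gene, divided by the mean of the flanks, in standard sperm and ES cells. The histone genes have a sperm signal of 0.806 at 200 to 100 bp upstream, where ES cells are at 0.43, and a common low between 200 and 300 bp downstream at 0.0823 in sperm and 0.0952 in ES cells.

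Along the promoter, the libraries parted in the last stretch before the start. The mean histone profile at 200 to 100 bp upstream stood at 0.806 of the flanks in sperm and 0.43 in ES cells, and at 100 to 0 bp at 0.601 in sperm and 0.317 in ES cells. Further upstream, at 400 to 300 bp, the order was the other way, with 0.624 in sperm and 0.891 in ES cells. Over all high-CpG start sites the step at 200 to 100 bp stood at 0.351 in sperm and 0.433 in ES cells, so a higher sperm value there was not seen in that class as a whole.

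All 5 families had a positive upstream log2 ratio of sperm to ES cells. It was 0.99 (-0.73 to 2.80) for H1, 1.18 (0.41 to 1.97) for H2A and 1.44 (0.75 to 2.16) for H2B. It was 1.07 (0.24 to 1.93) for H3 and 1.20 (0.12 to 2.33) for H4, so that only the interval of H1 held 0. By start site, and not scaled to depth, sperm held more upstream fragment equivalents at 34 of 61, ES cells at 18, and 9 were equal. Sperm held more at 33.3% of all start sites. Among the 24 with at least 5 upstream fragment equivalents in both libraries together, 14 had a log2 ratio above 0.5 (58.3%, background 34%) and 0 had one below -0.5 (background 26.7%). These ratios add 1 fragment to each library before scaling to depth. On few fragments this draws a ratio toward a value above 0.5, also in the background. A start site could pass the filter through 1 library alone, as H2ac11 did with 5.45 in sperm and 0 in ES cells. The count is therefore not separate from the pooled ratio. Genes that start back to back share much of this stretch, as do both H2bc6 start sites, so these counts stand for fewer separate places. With 1 start site of each such pair, the upstream log2 ratio of the histone genes was 1.20 (0.77 to 1.63).

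Single genes show the range. In sperm H3c4 held 6.32 fragment equivalents in the 200 bp upstream, against 0.318 in ES cells, and H2bc3 held 5.14, against 0.182. The shared promoter of H2ac11 and H2bc11 held 6.86 between the start sites in sperm and 0 in ES cells. Other promoters held more in ES cells before scaling to depth, as at H2bc21 with 3.32 in sperm and 6.45 in ES cells, H2ac21 with 3.18 and 6.23, and H3c2 with 3.45 and 5.05. As log2 ratios of shares these were -0.21 for H2bc21, -0.21 for H2ac21 and 0.14 for H3c2. H3c4 and H3c2 code for the same kind of histone, yet lay far apart in this measure. In the printed sequences both carry CCAAT on the gene's own strand 160 to 40 bases upstream. Both also carry the exact letters TATAAA on that strand, 45 to 20 bases upstream at H3c2 and further upstream at H3c4. At 45 to 20 bases H3c4 instead holds the run tatatatat, which the exact match does not count. Whether these letters bear on the signal was not tested.

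**Figure D4:**
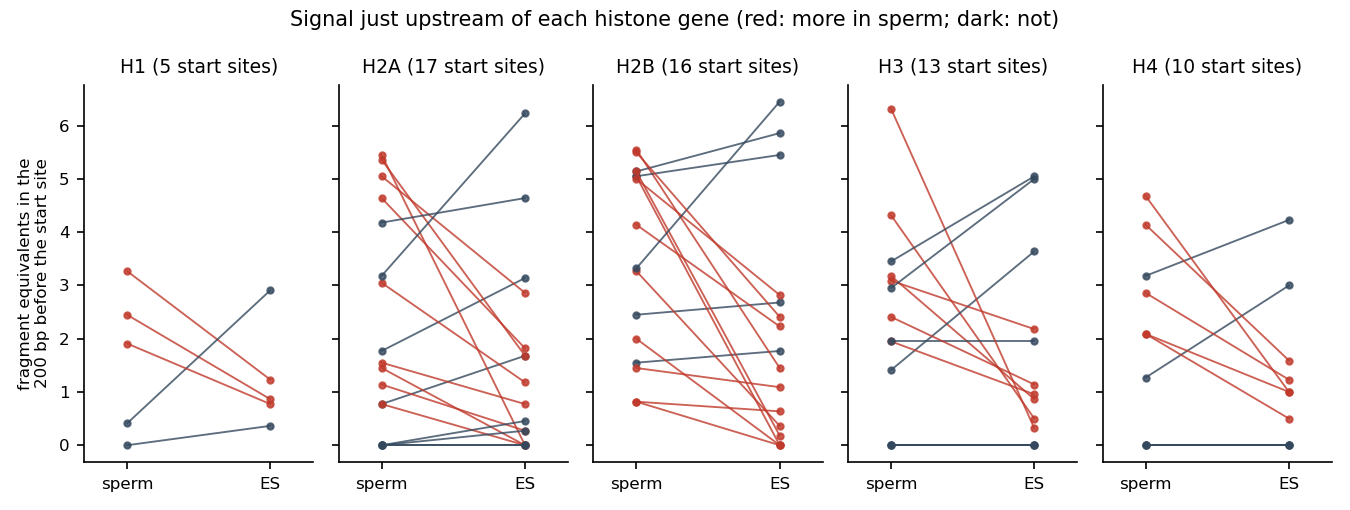
Fragment equivalents in the 200 bp before the start site in standard sperm (left) and ES cells (right), 1 line per start site and 1 panel per histone family, not scaled to depth. Red lines mark the 34 start sites with more in sperm, and dark lines the 18 with more in ES cells and the 9 that were equal.

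Many H2A and H2B genes start back to back and share 1 promoter. Among the histone start sites with a ratio, 11 such pairs lay within 1000 bp of each other on opposite strands, 10 of them an H2A with an H2B gene and 1 the H2bc9 and H3c7 pair. Their start sites were a median of 280 bp and at most 699 bp apart. Between the start sites the 11 pairs held 51.9 fragment equivalents in sperm and 31.8 in ES cells, a log2 ratio of shares of 1.28 (0.61 to 1.96). Sperm held more in 8 of the 11 before scaling to depth. The pair H2ac12 and H2bc12 held 7.09 in sperm and 3.86 in ES cells, H2ac8 and H2bc8 held 4.64 and 1.14, and the testis pair H2bc1 and H2ac1 held 6.91 and 3.5. ES cells held more at H2bc13 and H2ac13 (1.68 in sperm, 2.32 in ES cells), H2ac15 and H2bc15 (2.82 and 3.95) and H2ac20 and H2bc21 (4.82 and 7.32). Scaled to the depth of the sperm library, the ES cell values of these 3 pairs were 1.55, 2.65 and 4.91, so the sperm share was higher in 10 of the 11 pairs, all but H2ac20 and H2bc21.

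Downstream of the start site signal was low in both libraries. In the 300 bp downstream, the 61 start sites held 46.3 fragment equivalents in sperm and 71.9 in ES cells, which was 0.145 (0.106 to 0.195) of the flanks in sperm and 0.193 (0.15 to 0.244) in ES cells. The log2 ratio of shares was -0.07 (-0.64 to 0.48). Over all start sites the downstream signal was 0.387 of the flanks in sperm and 0.528 in ES cells, and over the high-CpG ones 0.169 in sperm and 0.316 in ES cells. Of the 58 start sites with at least 20 fragment equivalents, 43 held under 1 downstream in sperm (74.1%, background 48%) and 39 in ES cells (67.2%, background 28.7%). Within the high-CpG class it was 23 of 34 in sperm (67.6%, background 69.3%) and 24 of 34 in ES cells (70.6%, background 40.9%), so in sperm the histone share was near that of the class.

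By family, the linker genes had the highest downstream value in ES cells, with an interval that overlapped that of H2B. The 5 H1 genes held 3.5 fragment equivalents downstream in sperm and 15.7 in ES cells, or 0.133 (0.036 to 0.347) of the flanks in sperm and 0.48 (0.27 to 0.798) in ES cells. Only 1 of the 5 held under 1 in ES cells, against 4 in sperm. H1f1 held 0.636 in sperm and 4.36 in ES cells, H1f4 held 0.5 and 3.64, and H1f5 held 0 and 3. In ES cells the core genes stood at 0.098 of the flanks for H2A, 0.312 (0.21 to 0.447) for H2B, 0.172 for H3 and 0.053 for H4. Some core genes held more than any H1 gene in ES cells. H2bc21 held 0.591 downstream in sperm and 16 in ES cells, H3c8 held 0.273 and 6.36, and H2bc6 held 3.91 and 5.05 at its first start site and 4 and 5.55 at its second.

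Pooled, genes that serve histone supply held a lower share of the signal in sperm than in ES cells, as the high-CpG class did by its median. The list holds the histone gene activator Npat, the stem-loop binding protein Slbp, cyclin E, chaperones and the 3' end processing factors, with 31 start sites that have a ratio. Their median log2 ratio was -0.41, beside -0.25 over all high-CpG start sites. Of the 31, 25 were below 0 and 6 above (19.4% above, beside 34.4% of the high-CpG start sites and 44.8% of all). Pooled, they held 492 fragment equivalents in sperm and 999 in ES cells, a log2 ratio of -0.45 (-0.60 to -0.29). Npat had 15.1 in sperm and 34.5 in ES cells and Slbp 19.7 and 40.2, with intervals that held 0. Among the 29 with at least 20 fragment equivalents the interval lay below 0 at 5 (17.2%), near the 14.2% of the high-CpG start sites (11.6% of all). These were Lsm11, a component of the processing machinery, with 20.5 in sperm and 66.9 in ES cells, Cpsf2 with 14.3 and 48.5, Nup98 with 9.82 and 33.5, and both Ccne2 start sites. The windows of both Ccne2 start sites overlap, so the 5 stand for fewer separate places. The Ccne2 start sites had 3.27 and 5.41 in sperm and 23 and 25.2 in ES cells, and the deepest start site of the list, in Pou2f1, had 50 in sperm and 100 in ES cells.

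The 16 replication-independent histone genes had a median log2 ratio of 0.15 and a pooled one of 0.16 (-0.07 to 0.38). Upstream of them sperm held 0.412 of the flanks and ES cells 0.285. Among the 14 with at least 20 fragment equivalents the interval lay above 0 for H1f6 alone (7.14%, background 11.5%). Below that depth it lay above 0 for H2ab1, a testis variant of H2A on the X chromosome, with 12.9 in sperm and 3.91 in ES cells. The deepest, H2az2, had 41.5 in sperm and 56.3 in ES cells, a log2 ratio of 0.14 (-0.45 to 0.76).

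In the titrations the histone genes were sparsely covered, with 4.85 to 37 fragment equivalents per library. Their signal per base relative to all start sites was 0.753 at 0.5 units, 0.545 at 2, 0.932 at 10 and 0.612 at 50 in the unspun series, over 61 start sites. On the 34 start sites that the count tables of the split series hold, the unspun values were 0.728, 0.526, 0.879 and 0.683. The unspun, standard sperm and ES cell values are relative to all 24084 start sites. Those of the split series are relative to the 16482 in their own set, so the scales differ. On these 34 the value was 0.554 at 1 unit, 0.76 at 5, 0.796 at 20 and 0.98 at 100 in the supernatant, and 2.53, 1.54, 0.436 and 1.61 in the pellet. With the unspun values over 61 start sites, the intervals of 8 of the 12 libraries held 1. Those of the unspun libraries at 2 units (0.328 to 0.85) and 50 units (0.366 to 0.977) lay below 1. Those of the pellet at 1 unit (1.25 to 4.81) and 100 units (1.13 to 2.22) lay above it. Every unspun and supernatant titration value was below 1, unlike that of the standard sperm library. Over the 61 start sites the standard sperm library stood at 1.17 (1.11 to 1.25) and the ES cell library at 0.961 (0.91 to 1.01), and over the 34 at 1.22 (1.14 to 1.31) and 0.965 (0.902 to 1.03).

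The slope of the log2 relative signal per doubling of enzyme was -0.004 (-0.128 to 0.119) for the unspun libraries. For the supernatants it was 0.116 (-0.048 to 0.280), so both intervals held 0, and the supernatant slope turned sign over the whole span (-0.034) and at 20 bp per bin (-0.028). In the pellet it was -0.166 (-0.319 to -0.012), and without the 1-unit pellet library, which held 9.69 histone fragment equivalents, it was 0.036. The pellet interval also held 0 without the 5-unit library (slope -0.160) or the 20-unit library (-0.084), and over the whole span (-0.052, -0.166 to 0.062); without the 100-unit library the slope was -0.579 (-0.940 to -0.219).

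**Figure D5:**
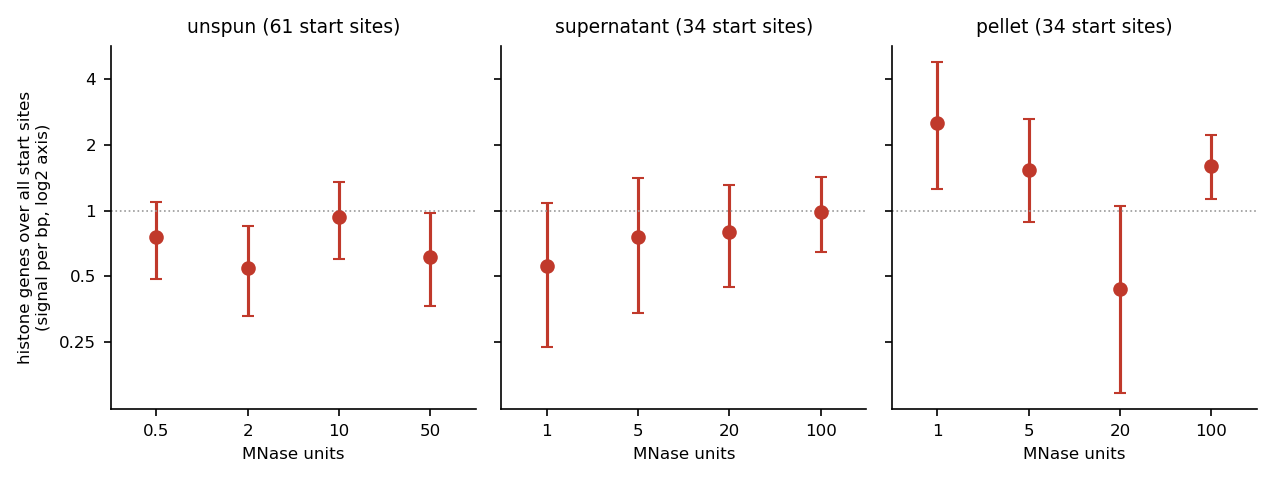
Signal per base at histone gene start sites relative to all start sites of the same library, against MNase units, in the unspun, supernatant and pellet series of sperm, with 95% counting intervals and a log2 vertical axis. The unspun series covers 61 start sites, and the other two cover 34. The 12 values lie between 0.436 and 2.53, and 8 of the intervals hold 1, the dotted line.

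Downstream of the start site the 3 series gave different values, on few fragments. Summed over doses, the 300 bp downstream stood at 0.383 (0.151 to 0.813) of the flanks in unspun sperm, where all start sites stood at 1.09. On the 34 start sites that all series share the unspun value was 0.371 (0.0984 to 0.993), beside 1.51 (0.756 to 2.79) in the supernatant and 4.24 (2.16 to 8.12) in the pellet, where all start sites stood at 1.5. The pellet value rested on the 100-unit library, which gave 12.9 of 16.8 fragment equivalents, and without it the ratio was 2 (0.474 to 6.46). The supernatant value was 0.59 (0.154 to 1.62) without its 100-unit library. Pellet signal downstream was spread over 14 of the 34 start sites, with at most 1.94 at H4c4 and at H3c11. Upstream the unspun series stood at 1.28 (0.679 to 2.23) of the flanks, where all start sites stood at 1.01. On the 34 shared start sites the upstream value was 1.25 (0.521 to 2.61) in unspun sperm, 0.969 (0.303 to 2.4) in the supernatant and 2.5 (0.843 to 6.22) in the pellet. Without the 100-unit library it was 0.493 (0.0579 to 1.89) in the supernatant and 0.835 (0.0196 to 5.56) in the pellet, where 0.646 fragment equivalents were counted as a whole fragment. These libraries cannot show at this depth whether the upstream signal changed with enzyme.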

How the data were processed

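Sperm and ES cell MNase libraries were read from deposited tables with 1 row per start site and 200 bins. Alignment used Bowtie (no version given), SAMtools 0.1.16 and mm9, per the submitters' processing notes; how duplicates and multiply mapping reads were handled was not given in the sources used here. In all the series has 17 samples, and 3 of them are not analysed here.

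For 6 libraries the authors deposited a signal, a pileup in 20 bp bins over 2000 bp on each side from fragments of 135 to 165 bp, per the file names, not scaled to depth. For 8 libraries they deposited counts per bin, not scaled to depth. Their header labels steps of 20 bp, but stretches shared by neighbouring rows differed by 22.3% at 50 bp per bin and 95% at 20 bp, so 50 bp was used. An isolated fragment adds 22 to the pileup, as measured in the unspun libraries, and 3.1 to the counts, and fragment equivalents are sums divided by these. In the standard sperm and ES cell libraries isolated signal had a higher median sum, 44 and 87. The intervals take all fragment equivalents as independent counts. Whether they are was not tested, and if not, the intervals are too narrow. The pileup of a fragment is wider (280 bp) than the fragment.

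Symbols came from a RefSeq gene table (GRCm38.p6, names only), and 24084 start sites remained in the pileup tables and 16482 in the count tables after repeats were taken once. Log2 ratios compare shares of all signal within 1000 bp, and those of single start sites have a pseudocount of 1 fragment. It was added to each library before scaling to depth, which on few fragments draws a ratio toward a value above 0.5. Start sites under 3 fragments in both libraries got no ratio. Intervals are exact conditional binomial (Clopper-Pearson) without pseudocount and cover counting error only, since reads carry no molecular identifiers. Intervals, pooled ratios and ratios of histone signal to the flanks use counts rounded to whole fragments, which makes them coarse on few fragments. Pooled values count overlapping windows once, while counts of start sites take each start site by itself. Each group held 1 library, so no test between groups was made. Members and lists were chosen with earlier results of these data known. Named were, per family, the deepest member and the highest and lowest ratios with at least 20 fragments, all members on chromosome 3, H2ac1, H2bc1 and H1f6, and in other lists genes whose interval leaves out 0 and the deepest one (for the neighbours only examples); single genes in the upstream, downstream and titration paragraphs were chosen after their values were seen. Python 3.11.15, numpy 2.4.6, pandas 2.3.3, scipy 1.17.1 and matplotlib 3.10.9 were used, and the counting was tested on simulated data.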

Additional observations from a re-analysis of the deposited data

How the results depend on the processing

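No paired analysis was possible because every group holds 1 library. Of 76 values recomputed under an alternative, 67 stayed within the counting interval or 1.5 times the count. Within 200 bp of the start site, where the upstream signal weighs more, the log2 ratios of sperm over ES cells had a median of 0.81. The pooled one was 0.88, and 40 of 58 start sites were above 0.5 (69%, background 36.7%). All but the pooled value add 1 fragment to each library before scaling to depth. A start site with no signal there in either library, such as the first listed of H2ac19, thus counted as above 0.5, also in the background. Over the whole span the median was 0.20. Of the 34 start sites that the count tables share, 1 was below -0.5. On chromosome 3 alone, chosen after seeing the data, the pooled ratio was -0.13. The supernatant slope within 200 bp was 0.354, and the pellet slope there could not be fitted since a library held 0. Leaving out 1 dose at a time, slopes ran from -0.031 to 0.078 (unspun), 0.086 to 0.123 (supernatant) and -0.579 to 0.036 (pellet). Centring on the median of all start sites (-0.09) gave a median of 0.42 and 23 above 0.5. Without promoters that share a 36-base stretch, an alternative added after seeing the data, the upstream log2 ratio was 1.34 (0.90 to 1.79). Depth limits single genes: few intervals leave out 0, and titration libraries hold at most 37 histone fragment equivalents.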
